A study of Mus musculus with 16 samples.

Results

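The genes described here are 10 that intestinal lymphocytes and plasma cells are known for: Il2rb, Prf1, Gzma, Gzmb, Cd3e, Cd3g, Cd8a, Itgae, Jchain and Cd79b. They were taken by symbol. Every probe set whose only gene in the platform annotation was one of them was used, which gave 11 of the 12488 probe sets on the array and 10 of the 8251 genes that a probe set measured alone. Itgae had 2 probe sets and every other member 1. The signals came from 16 oligonucleotide arrays of mouse ileal epithelial cells, which had been cut from tissue with a laser and whose RNA had been amplified in 2 rounds. The labels gave 5 arrays as adenoma, a benign tumour of the epithelium, 5 as carcinoma, an invasive one, and 6 as WT. Strain, age, the number of mice and what caused the tumours are not stated in the labels, nor is a genotype beyond the name WT. All 6 arrays without tumour are named WT and no tumour array is. Tumour thus cannot be told apart from any difference in genotype. No label links an array to an animal, so the p-values below measure the spread between captured samples, which may share animals.

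Intraepithelial lymphocytes are T cells that sit between the epithelial cells of the gut, mostly with CD8 on their surface and granules ready for killing. They are held in place by the integrin CD103, whose alpha chain is encoded by Itgae and which binds E-cadherin on the epithelium, and they depend on IL-15 signalling through the receptor chain encoded by Il2rb. Plasma cells lie below the epithelium in the lamina propria and secrete dimeric IgA joined by the J chain, which epithelial cells carry into the lumen. A laser cut of epithelium can take intraepithelial lymphocytes with it, and lamina propria cells where the cut runs deep.

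Several of these genes gave less signal in tumour captures than in WT captures. Il2rb, Prf1, Jchain and Cd79b were lower in adenoma, and Il2rb, Prf1 and Jchain were lower in carcinoma. For Jchain and Il2rb no tumour array reached the lowest WT array. How many of all tested genes separated in this way was not counted, here or for the genes below. Gzmb did not follow them, with a higher median signal in adenoma than in WT and no difference that passed the test. Between carcinoma and adenoma no member passed. In captures of bulk RNA, fewer cells of a type and less RNA per cell cannot be told apart. Nor can they be told from differences in the arrays, in how deep the cut ran or in the genotype of the mice. Tumour and WT arrays also differed in the 3' to 5' ratio of Gapdh and in spiked-in control signal, as given below. With the Gapdh ratio in the fit no member passed, and without WT 1, WT 2, WT 4 and WT 5 Jchain alone did.

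The counts were as follows. In adenoma against WT, 4 of the 8 members that could be tested were lower and 0 were higher at a limma adjusted p of 0.05. Of all 7455 tested genes 8.28% passed, 4.25% as lower and 4.02% as higher. At an unadjusted p under 0.05, 5 of the 8 were lower in each tumour. Such p-values were common among all genes. By unadjusted limma p, Gzma (0.0255) ranked 1283 of the 7455 genes in adenoma, and Cd79b (0.0435) ranked 1670 in carcinoma. In carcinoma against WT, 3 of 8 were lower and 0 higher, where 9.05% of all genes passed, 4.9% as lower and 4.16% as higher. In carcinoma against adenoma, 0 of 8 passed, and 0 had an unadjusted p under 0.05, where 0.0268% of all genes passed. Both tumour comparisons used the same WT arrays. The median log2 fold change of the 8 members was -1.05 in adenoma and -0.89 in carcinoma, against -0.14 for all genes in each. That shift of all genes varied with the scaling of the arrays: it was -0.02 in adenoma and -0.01 in carcinoma after quantile normalization, and 0.12 and 0.15 with array medians aligned. Quantile normalization gives every array the same distribution, so a value near 0 was set in advance. Where the shift came from was not tested. With the scaling the share of called genes that were higher moved, in adenoma to 62.6% after quantile normalization and 75.8% with medians aligned, against 48.6% as deposited, and in carcinoma to 58.8% and 73.7%, against 45.9%. The calls for Il2rb and Jchain held under both scalings in both tumours, and every member called there was lower. Cd3g and Cd8a could not be tested, because they exceeded the floor of 46.9 signal units on too few arrays, and Cd3e passed the filter only through its WT arrays. Il2rb exceeded the floor on 6 WT arrays, 1 adenoma array and 3 carcinoma arrays, so it too needed WT arrays to pass. Its direction, and its part in these counts and medians, is thus not independent of the filter.

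**Figure D1:**
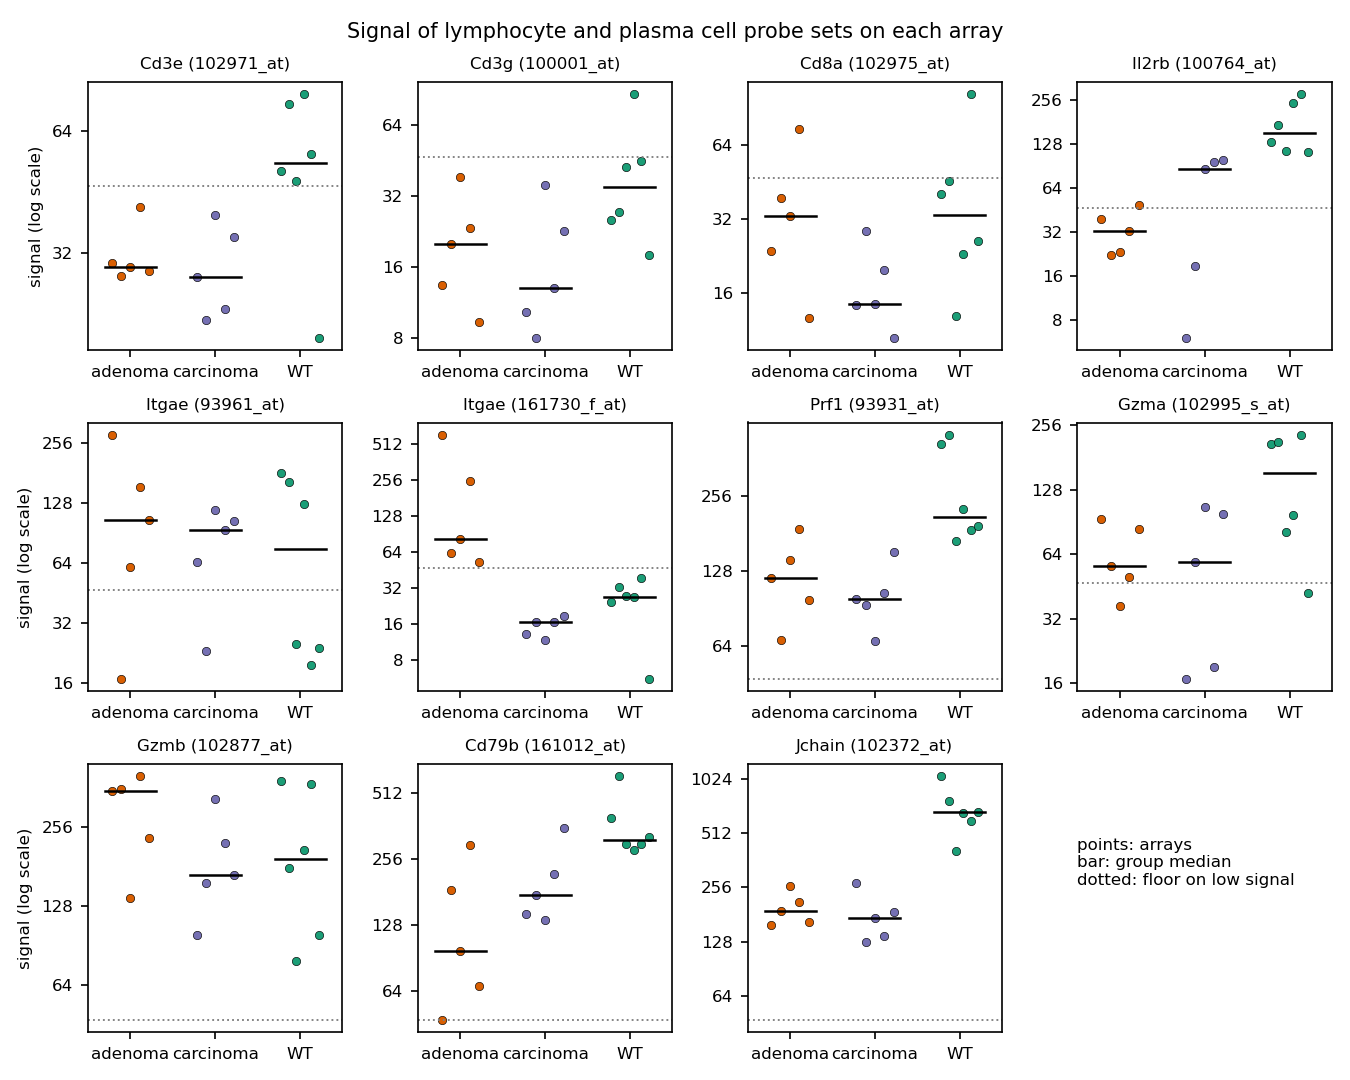
Signal of each of the 11 probe sets on each of the 16 arrays (log scale), adenoma and carcinoma left of WT, with 1 point an array and a line at the floor of 46.9 signal units. For Il2rb and Jchain every tumour point lies below every WT point, for Gzmb the groups overlap, and for Cd3e, Cd3g and Cd8a most points lie under the floor.

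The arrays themselves differed between the groups, and these differences run along with the results. Control transcripts spiked into each hybridisation had a mean log2 signal that ranged from 11.38 to 13.47 in adenoma, 11.56 to 12.7 in carcinoma and 12.44 to 14.73 in WT, with WT 1, WT 2, WT 4 and WT 5 above every tumour array. For Gapdh, whose signal toward each end of the transcript shows how complete the copied RNA is, the log2 3' to 5' ratio ranged from 5.52 to 6.12 in adenoma, 4.95 to 6.45 in carcinoma and 4.09 to 5.02 in WT. Values at or under the floor made up 23.1% to 29.9% of an adenoma array, 23.8% to 35.2% of a carcinoma array and 18.2% to 25.4% of a WT array. Epcam, an epithelial adhesion molecule, gave 6625.7 to 9694.4 signal units in adenoma, 6296.1 to 11308.7 in carcinoma and 6486.3 to 12095.1 in WT. It shows epithelium in the captures, not that they held epithelium alone. Genes of other cells, given below, also gave signal.

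Il2rb encodes the beta chain shared by the IL-2 and IL-15 receptors. Its probe set 100764_at gave 39.0, 22.2, 23.5, 32.3 and 49.0 signal units in adenoma 1 to 5. In carcinoma 1 to 5 it gave 6.0, 18.8, 85.6, 96.8 and 99.6. In WT it ran from 113.6 to 282.4 with a median of 151.65. All 10 tumour arrays lay below all 6 WT arrays, and 4 of the adenoma arrays lay under the floor. Without its WT arrays Il2rb would not have passed the filter. Carcinoma was split, with arrays 1 and 2 under the floor and arrays 3, 4 and 5 close together above it. On floored log2 values Il2rb was lower by 1.80 ± 0.30 (SE) in adenoma, or 3.49-fold (limma adjusted p = 0.000651), and by 1.22 ± 0.30 in carcinoma, or 2.32-fold (adjusted p = 0.0135), and both folds are understated by the floor. Carcinoma minus adenoma was 0.59 ± 0.31 (95% interval -0.06 to 1.24), an interval that includes no difference. With only WT 3 and WT 6 kept of the WT arrays, the difference was -1.27 ± 0.34 in adenoma (adjusted p = 0.0695) and -0.68 ± 0.34 in carcinoma (adjusted p = 0.414).

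Prf1 encodes perforin, which opens pores in the membrane of a target cell. Its probe set 93931_at gave 119.6, 67.2, 142.4, 189.4 and 98.2 signal units in adenoma 1 to 5. In carcinoma 1 to 5 it gave 98.6, 93.7, 66.9, 104.5 and 153.1. WT arrays ran from 169.3 to 454.3 with a median of 211.35. All 5 carcinoma arrays and 4 of 5 adenoma arrays lay below the lowest WT array, and adenoma 4 lay above it. Prf1 was lower by 1.35 ± 0.33 in carcinoma, or 2.54-fold (limma adjusted p = 0.014), and by 1.13 ± 0.33 in adenoma, or 2.18-fold (adjusted p = 0.0422). The adenoma call depended on single arrays and ended when WT 1, 2 or 4, adenoma 1, 2, 3 or 5, or carcinoma 1, 2 or 4 was left out (-1.30 to -0.93 over all 16 arrays left out in turn, adjusted p up to 0.118). After quantile normalization neither passed, at -0.90 ± 0.34 in adenoma (adjusted p = 0.128) and -1.05 ± 0.34 in carcinoma (adjusted p = 0.0647). Without WT 1, WT 2, WT 4 and WT 5 the difference was -0.65 ± 0.39 in adenoma (adjusted p = 0.552) and -0.87 ± 0.39 in carcinoma (adjusted p = 0.355).

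Granzymes are the serine proteases that enter a target cell through perforin. Gzma was measured by 102995_s_at, a kind of probe set whose probes can match more than 1 transcript. It gave 93.1, 56.5, 36.6, 49.8 and 83.9 signal units in adenoma 1 to 5. In carcinoma 1 to 5 it gave 16.7, 59.0, 106.0, 19.1 and 98.0, and in WT it ran from 42.1 to 230.7 with a median of 152.9. The groups overlapped, and WT 6 lay below most tumour arrays. The log2 difference was -0.98 ± 0.40 in adenoma (limma adjusted p = 0.148) and -0.90 ± 0.40 in carcinoma (adjusted p = 0.179), and neither passed. It passed in both when WT 6 was left out, at -1.26 ± 0.36 (adjusted p = 0.0382) and -1.18 ± 0.36 (adjusted p = 0.0453), and was 0.04 ± 0.42 and 0.12 ± 0.42 without WT 1, WT 2, WT 4 and WT 5.

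Gzmb, the granzyme that sets off apoptosis through caspases, gave 352.9, 356.9, 137.7, 402.3 and 232.6 signal units in adenoma 1 to 5 (probe set 102877_at). In carcinoma 1 to 5 it gave 99.2, 157.2, 326.5, 223.2 and 167.9. The WT range was 79.2 to 383.7 with a median of 194.2. The 3 groups overlapped over nearly their whole range, and adenoma 4 held the highest value of all arrays. The log2 difference was 0.57 ± 0.43 in adenoma (95% interval -0.33 to 1.47, limma adjusted p = 0.451) and -0.05 ± 0.43 in carcinoma (-0.95 to 0.85, adjusted p = 0.96). Both intervals hold differences in either direction, so the groups are not shown to be alike, and the carcinoma value was 0.26 after quantile normalization. Without WT 1, WT 2, WT 4 and WT 5 the differences were 1.64 ± 0.47 (adjusted p = 0.0912) and 1.03 ± 0.47 (adjusted p = 0.36).

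Perforin and granzyme B act together, and the balance of their signals differed between arrays. The log2 ratio of Gzmb to Prf1 signal within an array was 1.56, 2.41, -0.05, 1.09 and 1.24 in adenoma 1 to 5. It was 0.01, 0.75, 2.29, 1.09 and 0.13 in carcinoma 1 to 5. In WT it ran from -1.35 to 0.99 with a median of -0.55. Every tumour array lay above every WT array but WT 5, which lay among them at 0.99. The ratio was chosen after the values had been seen and was not tested. A ratio of 2 probe sets is no ratio of transcripts, and only its differences between arrays can be read.

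**Figure D2:**
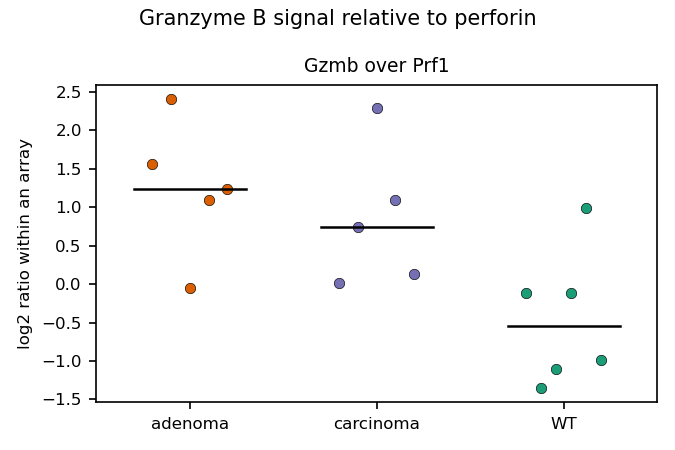
Log2 ratio of Gzmb to Prf1 signal within each array, adenoma and carcinoma left of WT, with 1 point an array and a bar at the group median. The medians are 1.24 in adenoma, 0.75 in carcinoma and -0.55 in WT, with overlap between the groups.

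The sequences upstream of these 3 genes are shown because their products act together, and that of Jchain because its calls held in the most settings. Each is the 250 bases before the gene's start in RefSeq's annotation of mouse assembly GRCm38.p6, written 5' to 3' on the gene's strand, with capitals where a searched motif matched. Those of Prf1, on the plus strand, lie at chr10:61297586-61297835, and those of Gzma, Gzmb and Jchain, on the minus strand, at chr13:113100982-113101231, chr14:56262335-56262584 and chr5:88527898-88528147.
Prf1: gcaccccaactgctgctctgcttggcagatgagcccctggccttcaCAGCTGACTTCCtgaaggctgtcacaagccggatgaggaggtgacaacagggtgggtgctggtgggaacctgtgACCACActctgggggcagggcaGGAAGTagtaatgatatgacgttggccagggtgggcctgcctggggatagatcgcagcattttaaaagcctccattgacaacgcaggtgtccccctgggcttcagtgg
Gzma: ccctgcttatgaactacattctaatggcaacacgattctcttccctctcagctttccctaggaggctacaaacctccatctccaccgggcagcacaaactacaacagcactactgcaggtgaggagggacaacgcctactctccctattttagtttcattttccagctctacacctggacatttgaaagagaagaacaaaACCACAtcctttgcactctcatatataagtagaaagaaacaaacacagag
Gzmb: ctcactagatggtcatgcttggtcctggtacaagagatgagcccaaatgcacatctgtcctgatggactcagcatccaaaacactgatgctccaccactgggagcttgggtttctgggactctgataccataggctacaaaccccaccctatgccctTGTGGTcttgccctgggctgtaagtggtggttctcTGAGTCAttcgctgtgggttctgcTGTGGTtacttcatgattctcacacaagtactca
Jchain: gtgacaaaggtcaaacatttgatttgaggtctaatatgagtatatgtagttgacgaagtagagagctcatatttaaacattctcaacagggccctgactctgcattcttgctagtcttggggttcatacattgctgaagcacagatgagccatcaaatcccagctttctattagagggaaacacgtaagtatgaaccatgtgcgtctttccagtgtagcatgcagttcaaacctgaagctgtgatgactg
A sequence was found for 7 of the 10 members and not for Il2rb, Itgae or Cd79b. The motifs searched on both strands were Runx (TGTGGT, in 14% of all 32851 windows of this length), Ets (GGAAGT, 19.7%), E-box (CAGCTG, 13%), AP-1 (TGANTCA, 6.75%), Stat (TTCNNNGAA, 7.02%), T-box (GGTGTGA, 3.33%), octamer (ATGCAAAT, 1.6%), CRE (TGACGTCA, 1.55%), and the core promoter motif (TATAAA, 12.4%). The Prf1 window held 2 Ets matches, at -198 to -193 and -108 to -103 from the start, an E-box match at -204 to -199 and a Runx match at -130 to -125. The Gzma window held a Runx match at -50 to -45. The Gzmb window held Runx matches at -93 to -88 and -34 to -29 and an AP-1 match at -58 to -52. The Jchain window held none of these letters. Both matches of Prf1 at -198 and -130, and that of Gzma, lie on the opposite strand and are printed as the reverse complement. No matches overlapped, and a match describes the letters only.

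Cd3e, Cd3g and Cd8a encode chains of the T cell receptor complex and its co-receptor, and their probe sets were dim throughout. Cd3e (102971_at) gave 30.1, 27.9, 29.5, 41.5 and 28.8 signal units in adenoma 1 to 5 and 27.8, 21.8, 39.6, 23.1 and 34.9 in carcinoma 1 to 5. In WT it ran from 19.6 to 79.4 with a median of 53.55. All 10 tumour arrays lay under the floor and 5 of 6 WT arrays above it, with WT 6 below every other array. With all tumour arrays and WT 6 raised to the floor, the log2 difference was -0.31 ± 0.21 in each tumour and did not pass (95% interval -0.74 to 0.12, limma adjusted p = 0.393 in adenoma and 0.379 in carcinoma). It had to be lower to enter the test at all, as it was above the floor in WT only.

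Cd3g (100001_at) ran from 9.4 to 38.7 signal units in adenoma, 8.0 to 35.8 in carcinoma and 18.1 to 87.1 in WT, where WT 4 alone was above the floor. Cd8a (102975_at) ran from 12.7 to 74.0 in adenoma, 10.5 to 28.6 in carcinoma and 12.9 to 102.8 in WT, with adenoma 4 and WT 5 above the floor. The groups overlapped for both genes. In a fit of all 8251 genes with no floor and no filter, a setting added after the data were seen, the log2 difference of Cd3g was -0.93 ± 0.47 in adenoma (limma adjusted p = 0.262) and -1.22 ± 0.47 in carcinoma (adjusted p = 0.132). That of Cd8a was -0.12 ± 0.50 in adenoma (adjusted p = 0.913) and -1.03 ± 0.50 in carcinoma (adjusted p = 0.231). Signal near the floor limits what the probe sets of these 3 genes can show.

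Itgae encodes the alpha chain of CD103, and its 2 probe sets differed in the size of the difference between adenoma and WT. The brighter, 93961_at, gave 280.8, 16.7, 60.9, 154.2 and 105.1 signal units in adenoma 1 to 5 and 64.5, 23.0, 117.1, 93.5 and 103.7 in carcinoma 1 to 5. In WT it ran from 19.6 to 180.0 with a median of 75.3, with 3 arrays above the floor and 3 below. The groups overlapped, and the log2 difference was 0.31 ± 0.48 in adenoma (95% interval -0.70 to 1.31, limma adjusted p = 0.737) and -0.07 ± 0.48 in carcinoma (-1.08 to 0.93, adjusted p = 0.944).

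The other Itgae probe set, 161730_f_at, is of a kind whose probes match a family of similar sequences. It gave 610.9, 63.1, 81.3, 250.4 and 52.5 signal units in adenoma 1 to 5. It gave 13.2, 16.7, 11.6, 16.7 and 18.6 in carcinoma 1 to 5, and 5.5 to 39.0 in WT with a median of 26.9. All 5 adenoma arrays lay above the floor, and all carcinoma and WT arrays lay under it. Adenoma was at least 2.83-fold above WT, and carcinoma at least 2.83-fold below adenoma. Fitted among 9315 single probe sets, neither difference passed (limma adjusted p = 0.0525 and 0.986). It had to be higher in adenoma to enter the test at all, as it was above the floor there only. Of the 2 probe sets' adenoma values, array 1 was the highest in both and array 4 the next.

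Jchain, which encodes the joining chain of dimeric IgA and of IgM, gave 157.5, 189.3, 260.9, 212.1 and 164.9 signal units in adenoma 1 to 5 (probe set 102372_at). In carcinoma 1 to 5 it gave 271.2, 126.7, 172.6, 137.8 and 186.5. WT arrays ran from 407.4 to 1068.6 with a median of 669.4. The highest tumour array, carcinoma 1, lay below the lowest WT array, WT 3, and the tumour groups overlapped each other. Jchain was lower by 1.79 ± 0.27 in adenoma, or 3.46-fold (95% interval -2.36 to -1.22, limma adjusted p = 0.000318), and by 1.96 ± 0.27 in carcinoma, or 3.88-fold (-2.53 to -1.39, adjusted p = 0.000105). Jchain passed in both tumours with each of the 16 arrays left out in turn. Without WT 1, WT 2, WT 4 and WT 5 it was the member that still passed, at -1.44 ± 0.35 in adenoma (adjusted p = 0.0455) and -1.60 ± 0.35 in carcinoma (adjusted p = 0.0237).

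Cd79b, which encodes a signalling chain of the B cell receptor, gave 47.0, 183.2, 97.0, 294.4 and 66.9 signal units in adenoma 1 to 5 (probe set 161012_at). In carcinoma 1 to 5 it gave 142.8, 174.2, 134.5, 218.1 and 351.5. The WT range was 279.1 to 611.0 with a median of 309.75. In each tumour 4 of 5 arrays lay below the lowest WT array, the exceptions being adenoma 4 and carcinoma 5. Cd79b was lower by 1.67 ± 0.41 in adenoma, or 3.19-fold (limma adjusted p = 0.015). In carcinoma the difference of -0.88 ± 0.41 did not pass (adjusted p = 0.194). Carcinoma minus adenoma was 0.79 ± 0.43 (95% interval -0.10 to 1.68), so the tumours are not shown to differ. The adenoma call was lost without adenoma 5 (-1.49 ± 0.43, adjusted p = 0.0522) and without WT 1, WT 2, WT 4 and WT 5 (-1.49 ± 0.60, adjusted p = 0.269).

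**Figure D3:**
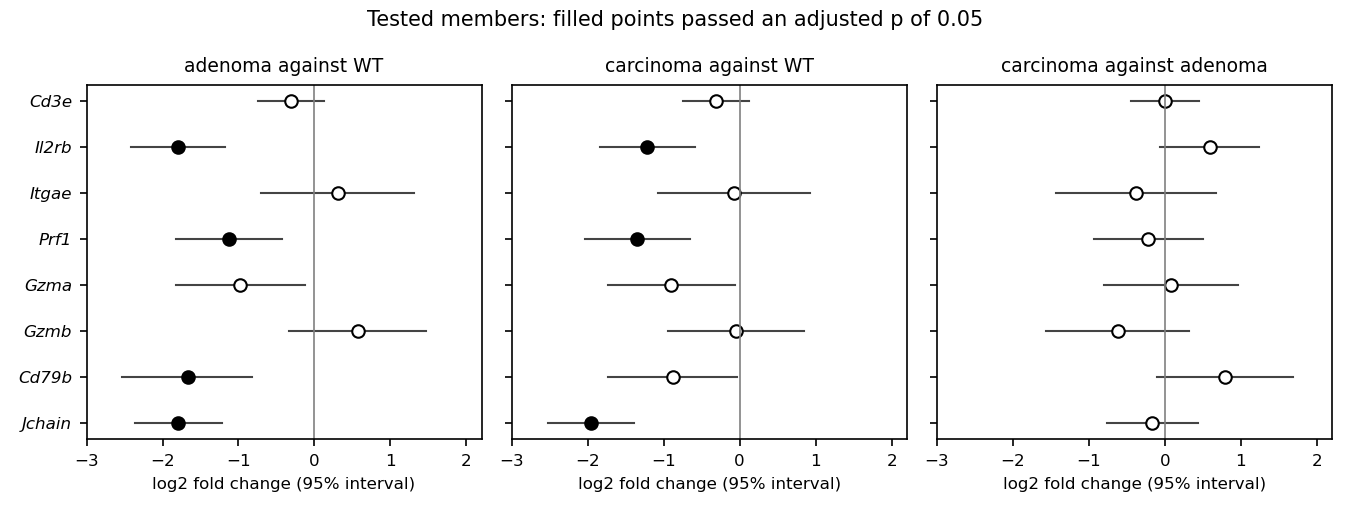
Log2 fold change of the 8 tested members in adenoma against WT, carcinoma against WT and carcinoma against adenoma, with 95% intervals, a line at 0 and filled points where the adjusted p passed. The intervals of Il2rb, Prf1 and Jchain lie below 0 in both tumours with filled points, and those of Gzmb and Itgae span 0 in both.

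The calls differed in how they fared once the array measures entered the fit. When spike-in signal entered the fit as a covariate, Jchain stayed lower in adenoma (-1.64, limma adjusted p = 0.00861) and in carcinoma (-1.81, adjusted p = 0.0039), and Il2rb in adenoma (-1.41, adjusted p = 0.0263). Il2rb in carcinoma (-0.82, adjusted p = 0.238), Prf1 (-0.61 in adenoma, adjusted p = 0.425, and -0.83 in carcinoma, adjusted p = 0.275) and Cd79b in adenoma (-0.84, adjusted p = 0.322) did not pass. Gzmb in adenoma was 1.54 ± 0.44 in that fit (adjusted p = 0.0521). With the Gapdh ratio as a covariate no member passed, and Jchain was -1.66 in adenoma (adjusted p = 0.146) and -1.84 in carcinoma (adjusted p = 0.054). The values of Il2rb (-1.87 ± 0.53 and -1.27 ± 0.49) and, in adenoma, Cd79b (-1.90 ± 0.72) were no smaller there than without it, and their errors were larger, while those of Prf1 were smaller (-0.79 ± 0.58 and -1.05 ± 0.54). Every adenoma array had a higher Gapdh ratio than every WT array, so that in adenoma this covariate nearly repeats the grouping.

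**Figure D4:**
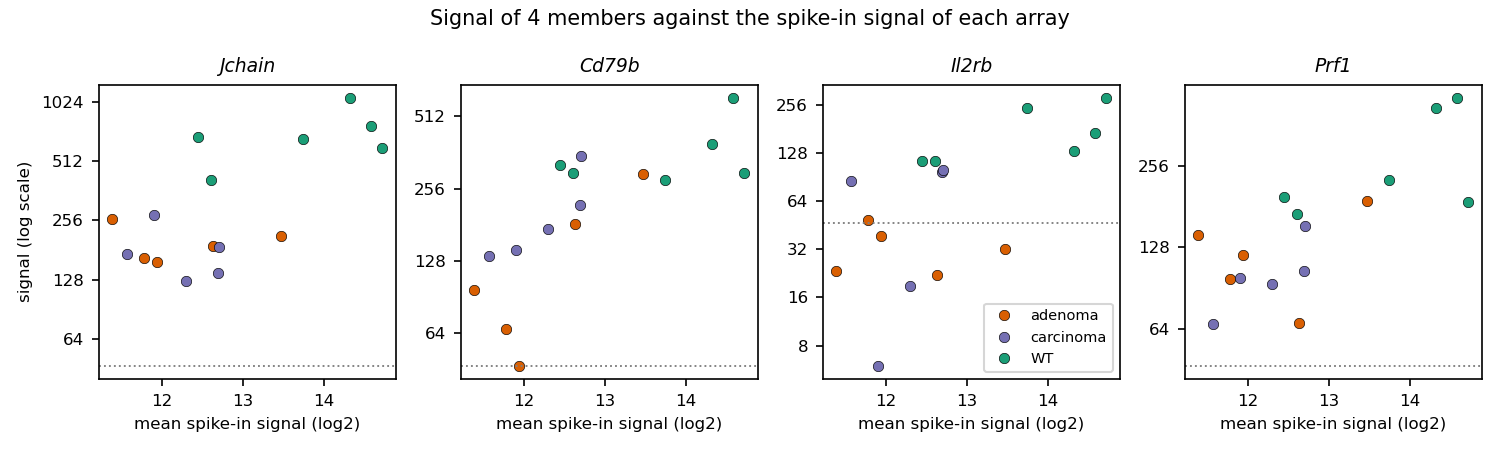
Signal of Jchain, Cd79b, Il2rb and Prf1 (log scale) against the mean log2 spike-in signal of the same array, with 1 point an array and a colour for each group. Jchain separates WT from the tumours also where the spike-in ranges meet, from 12.44 to 13.47, while the Prf1 points of WT 3 and WT 6 lie close to those of the tumours.

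Plasma cell and B cell genes beyond the members were partly lower and partly higher. Of 25 tested genes of that list, 4 were lower and 2 higher in adenoma (median -0.32), and 3 were lower and 2 higher in carcinoma (median -0.43), against -0.14 for all genes in each. Of all genes, 4.25% were lower and 4.02% higher in adenoma, and 4.9% and 4.16% in carcinoma. Igha, the heavy chain constant region of IgA that the J chain joins, had a median of 1092.8 signal units in adenoma (376 to 3427.4), 274.3 in carcinoma (152.8 to 2341.5) and 11374.4 in WT (3967.2 to 13773.8). No tumour array reached the lowest WT array. It was 9.55-fold lower in adenoma (-3.26 ± 0.64, limma adjusted p = 0.00316) and 22.5-fold lower in carcinoma (-4.49 ± 0.64, adjusted p = 0.000138). Without WT 1, WT 2, WT 4 and WT 5 it was -2.89 ± 1.0 in adenoma (adjusted p = 0.177) and -4.12 ± 1.0 in carcinoma (adjusted p = 0.0432). With the Gapdh ratio as a covariate Igha passed in neither tumour (-2.34 ± 1.11, adjusted p = 0.509, and -3.66 ± 1.04, adjusted p = 0.104).

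Pigr, the receptor by which epithelial cells themselves carry IgA into the lumen, was lower by 1.91 ± 0.31 in adenoma (limma adjusted p = 0.000549) and by 1.80 ± 0.31 in carcinoma (adjusted p = 0.000782). Without WT 1, WT 2, WT 4 and WT 5 it was -1.33 ± 0.34 (adjusted p = 0.0547) and -1.22 ± 0.34 (adjusted p = 0.0776). With the Gapdh ratio as a covariate it passed in neither tumour (-2.07 ± 0.55, adjusted p = 0.0991, and -1.95 ± 0.51, adjusted p = 0.0763). The J chain, the IgA heavy chain and this receptor act in 1 route of secretion. Ms4a1, which encodes the B cell surface protein CD20, was lower in adenoma (-1.18 ± 0.28, adjusted p = 0.0128), as was the B cell kinase Blk (-1.52 ± 0.32, adjusted p = 0.00503). In carcinoma Ms4a1 was -0.28 ± 0.28 (adjusted p = 0.572) and Blk -0.95 ± 0.32 (adjusted p = 0.0717). Higher in both tumours were Blnk, a B cell adaptor (1.16 ± 0.27, adjusted p = 0.0122 in adenoma, and 1.12 ± 0.27, adjusted p = 0.0139 in carcinoma), and Sdc1, a proteoglycan found on plasma cells and on epithelium (1.03 ± 0.23, adjusted p = 0.00767, and 1.07 ± 0.23, adjusted p = 0.00522). Also lower in carcinoma was Spib, a transcription factor of B cells (-1.77 ± 0.48, adjusted p = 0.0262). In the fit without the 4 WT arrays, Ms4a1, Blk, Blnk, Sdc1 and Spib passed in neither tumour, and Tnfrsf17, a receptor of plasma cells, was lower in adenoma (-1.81 ± 0.37, adjusted p = 0.0195). With all arrays Tnfrsf17 did not pass (-1.23 ± 0.47, limma adjusted p = 0.121 in adenoma, and -0.87 ± 0.47, adjusted p = 0.263 in carcinoma). Cd79a, the partner chain of Cd79b, was -0.13 ± 0.53 in adenoma (adjusted p = 0.911) and -0.39 ± 0.53 in carcinoma (adjusted p = 0.69). Ighm was -0.20 ± 0.36 and -0.49 ± 0.36 (adjusted p = 0.773 and 0.429).

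Genes that work with the T cell members gave few calls. Of 14 tested genes of the T cell receptor complex and its signalling, 0 passed in either tumour by limma (2 in adenoma and 5 in carcinoma at an unadjusted p under 0.05), with a median of -0.44 in adenoma and -0.29 in carcinoma. Unadjusted p-values under 0.05 were common among all genes too, as the ranks given above show. The summed signal of the 18 genes measured ran from 1895 to 4481 in adenoma, 2104 to 4761 in carcinoma and 2658 to 4711 in WT. Of 18 cytotoxic granule and NK receptor genes, 3 were lower in adenoma and 2 in carcinoma, where 4.25% and 4.9% of all genes were lower. The list's median was -0.14 in adenoma, the same as that of all genes, and -0.57 in carcinoma. The chemokine Ccl5 was lower by 1.56 ± 0.40 in both (limma adjusted p = 0.0217 in adenoma and 0.0197 in carcinoma), and so was Cd160, a receptor of intraepithelial lymphocytes and NK cells (-1.19 ± 0.34, adjusted p = 0.0394, and -1.36 ± 0.34, adjusted p = 0.0167). Gzmg, another granzyme, was lower in adenoma (-1.48 ± 0.39, adjusted p = 0.0223). The calls of all 3 genes were lost without WT 1, WT 2, WT 4 and WT 5, where Ccl5 was -0.29 ± 0.33 in adenoma (adjusted p = 0.785). Ccl5 exceeded the floor on 5 WT, 2 adenoma and 1 carcinoma arrays, so it needed WT arrays to pass the filter. Its direction is thus not independent of the filter.

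Of 18 cytokine receptor and homing genes, 2 were lower in adenoma (median -0.39) and 1 in carcinoma (median -0.38), where 4.25% and 4.9% of all genes were lower. Ccl25, the chemokine by which the small intestinal epithelium draws lymphocytes, had a median of 202 signal units in adenoma, 76.4 in carcinoma and 906.4 in WT, and no tumour array reached the lowest WT array at 534. It was 6.95-fold lower in adenoma (-2.80 ± 0.48, limma adjusted p = 0.000879) and 14.3-fold lower in carcinoma (-3.84 ± 0.48, adjusted p = 3.32e-05). With the Gapdh ratio as a covariate Ccl25 passed in carcinoma (-3.86 ± 0.79, adjusted p = 0.0185) but not in adenoma (-2.83 ± 0.84, adjusted p = 0.162). Without WT 1, WT 2, WT 4 and WT 5 both calls held, at -2.92 ± 0.59 (adjusted p = 0.0169) and -3.96 ± 0.59 (adjusted p = 0.00203). Itga4, an integrin chain of gut homing, was lower in adenoma (-1.18 ± 0.29, adjusted p = 0.0162), a call lost without those arrays (-0.99 ± 0.40, adjusted p = 0.278) and with the spike-in covariate (-0.98 ± 0.37, adjusted p = 0.148). The partner chain of Itgae, Itgb7, was -0.19 ± 0.31 in adenoma and -0.15 ± 0.31 in carcinoma (adjusted p = 0.749 and 0.793). Its ligand Cdh1, E-cadherin, was -0.38 ± 0.22 and -0.26 ± 0.22 (adjusted p = 0.336 and 0.514). Itgb7, Cdh1 and Cd79a are given as partners of members and were picked with their values known.

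**Figure D5:**
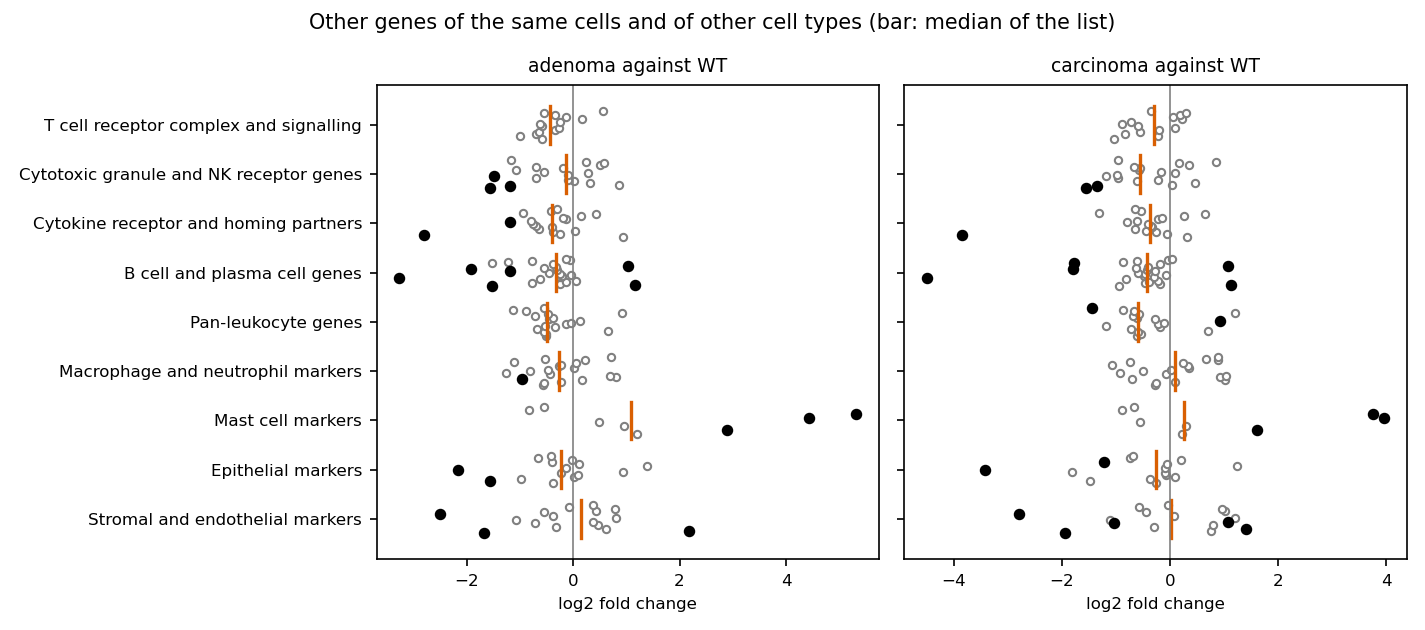
Log2 fold change of the tested genes of each companion list in adenoma against WT and carcinoma against WT, with 1 point a gene, filled where the limma adjusted p is under 0.05, and a line at the list's median. Mast cell markers have the highest median, at 1.08 in adenoma and 0.26 in carcinoma, and pan-leukocyte genes the lowest, at -0.49 and -0.58.

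Markers of other cells in the captures did not all run the same way as the members. For the counts here, 4.25% of all genes were lower and 4.02% higher in adenoma, and 4.9% and 4.16% in carcinoma. Pan-leukocyte genes gave 0 calls of 18 in adenoma (2 at an unadjusted p under 0.05, median -0.49), and 1 lower, Was (-1.45 ± 0.41, limma adjusted p = 0.032), and 1 higher, Lcp1 (0.93 ± 0.27, adjusted p = 0.036), in carcinoma (median -0.58). Their summed signal ran from 7414 to 13633 in adenoma, 10070 to 11156 in carcinoma and 9525 to 19114 in WT. Laptm5 weighed most in these sums, with a mean log2 signal of 12.56 in adenoma, 12.47 in carcinoma and 12.6 in WT. Ptprc, the common leukocyte antigen CD45, had a median of 91.9 signal units in adenoma, 101.2 in carcinoma and 141.1 in WT, with overlap. The macrophage marker Cd68 was 0.70 ± 0.43 in adenoma and 1.03 ± 0.43 in carcinoma (limma adjusted p = 0.345 and 0.143). Csf1r, another, was -0.44 ± 0.30 and -0.08 ± 0.30 (adjusted p = 0.402 and 0.907). Of 19 macrophage and neutrophil markers, 1 was lower in adenoma (Camp, -0.96 ± 0.26, adjusted p = 0.0288) and 0 passed in carcinoma (6 at an unadjusted p under 0.05, a level that many of all genes reached), with medians of -0.26 and 0.09. Some mast cell markers went the other way: of 8 tested (median 1.08 in adenoma and 0.26 in carcinoma), 3 were higher in each tumour, Mcpt2 (5.32 ± 0.39 in adenoma and 3.76 ± 0.39 in carcinoma), Mcpt1 (4.44 ± 0.45 and 3.96 ± 0.45) and Cpa3 (2.90 ± 0.40 and 1.61 ± 0.40), each with adjusted p of 0.0147 or less. The summed signal of 11 mast cell markers ran from 4148 to 9139 in adenoma, 2417 to 4569 in carcinoma and 1225 to 2364 in WT, with no overlap between either tumour and WT. Much of it came from Mcpt1 and Mcpt2, with medians of 1767.7 and 3309.9 in adenoma beside a median sum of 6588. The sum thus does not describe all 11 markers. Others of the list did not pass and had values below 0, picked here after they were seen: Ms4a2, a chain of the IgE receptor (-0.82 ± 0.38 in adenoma and -0.88 ± 0.38 in carcinoma, adjusted p = 0.202 and 0.155), Tpsb2, a tryptase (-0.54 ± 0.33 and -0.67 ± 0.33), and, in carcinoma, Kit (-0.55 ± 0.38). Without the 4 WT arrays, 3 mast cell markers were higher in adenoma and 2, Mcpt1 and Mcpt2, in carcinoma. In that fit Was (-1.10 ± 0.57, adjusted p = 0.442) and Camp (-0.87 ± 0.37, adjusted p = 0.317) did not pass, Lcp1 did, and Cd48 was lower in both tumours (-1.18 ± 0.27 and -1.20 ± 0.27). With all arrays Cd48 did not pass (-0.51 ± 0.26, limma adjusted p = 0.255 in adenoma, and -0.53 ± 0.26, adjusted p = 0.224 in carcinoma). With the Gapdh covariate, Mcpt1 and Mcpt2 passed in both tumours and Cpa3 in adenoma alone. Lcp1 did not pass there in carcinoma (adjusted p = 0.0709). The gene Was exceeded the floor on 6 WT, 3 adenoma and 1 carcinoma arrays, so it needed WT arrays to pass the filter. Its direction is thus not independent of the filter.

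Epithelial and stromal markers also shifted in part, where 4.25% of all genes were lower and 4.02% higher in adenoma, and 4.9% and 4.16% in carcinoma. Of 15 epithelial markers, 2 were lower in adenoma, Fabp2 (-2.16 ± 0.63, limma adjusted p = 0.0418) and Cdx1 (-1.56 ± 0.48, adjusted p = 0.0493), and 2 in carcinoma, Fabp2 (-3.43 ± 0.63, adjusted p = 0.00156) and Krt20 (-1.22 ± 0.29, adjusted p = 0.0112). The list's median was -0.23 in adenoma and -0.26 in carcinoma, and without WT 1, WT 2, WT 4 and WT 5 none of the 15 passed in either tumour (Fabp2 -1.45 ± 0.83 in adenoma, adjusted p = 0.515, and -2.72 ± 0.83 in carcinoma, adjusted p = 0.114). Krt8, a keratin of all gut epithelium, was -0.02 ± 0.49 and 0.20 ± 0.49 (adjusted p = 0.989 and 0.827). Of 16 stromal and endothelial markers, 2 were lower and 1 higher in adenoma, and 3 were lower and 2 higher in carcinoma. The endothelial cadherin Cdh5 was higher in adenoma (2.17 ± 0.32, adjusted p = 0.000237). The matrix genes Col1a1 (1.41 ± 0.23, adjusted p = 0.00054) and Dcn (1.08 ± 0.32, adjusted p = 0.0389) were higher and Col6a1 (-1.04 ± 0.30, adjusted p = 0.035) lower in carcinoma. The smooth muscle genes Myh11 (-2.49 ± 0.44 and -2.79 ± 0.44) and Acta2 (-1.68 ± 0.46 and -1.94 ± 0.46) were lower in adenoma and in carcinoma. Without the 4 WT arrays, Myh11 and Cdh5 still passed in adenoma and Myh11, Acta2 and Col1a1 in carcinoma. With the Gapdh covariate, Cdh5 passed in adenoma and Myh11 in carcinoma (limma adjusted p = 0.00854 and 0.0392). Myh11 in adenoma, and Acta2 and Col1a1 in carcinoma, did not pass there (adjusted p = 0.114, 0.341 and 0.0917). What part the share of each cell type in a capture had in the members' differences was not tested.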

How the data were processed

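Laser-captured mouse ileal epithelial cells were hybridised to Affymetrix MG_U74Av2 arrays after 2 rounds of RNA amplification, per the labels' protocols. Groups and replicate numbers came from the sample titles. The authors deposited linear intensities, 1 per probe set and array, and no label or header names the software. Each array's mean, with 2% of values trimmed from either end, was 500.3 or 500.4, so the arrays were taken as scaled and left so. No 2 arrays were identical.

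Intensities under the 25th percentile over all arrays (46.9, log2 5.55) were raised to it before log2 was taken, so folds near the floor are understated. The platform annotation gave gene symbols, with 10833 probe sets naming 1 gene, 396 several and 1193 none. Of several probe sets the one with the highest mean of floored log2 values stood for the gene. A gene was tested if at least 5 of the 16 arrays exceeded the floor (7455 of 8251). One model of the 3 groups was fitted in limma 3.58.1 under R 4.3.3 (13 residual degrees of freedom), two-sided, with Benjamini-Hochberg adjustment over all genes tested at 0.05. The fit was tested on simulated data. Plots were made in Python 3.11.15 with matplotlib 3.10.9. The number of arrays limits the precision.

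The members, the 9 companion lists and the tests were chosen with earlier results of these data known, so their direction is no independent evidence. The genes named are all members, up to 6 of each list that passed in a tumour (the smallest adjusted p first) and preset defining markers. Spib, Tnfrsf17, Cd79a, Itgb7, Cdh1, Cd48, Ms4a2, Tpsb2 and Kit lie outside this rule and were named after their values were seen. The alternatives were 2 other array scalings, other floors and filters, other ways to combine probe sets, array weights, a variance trend, the replicate number as a block, fits restricted to the compared pair, the Gapdh ratio or the spike-in signal as a covariate, leaving out WT 1, WT 2, WT 4 and WT 5, and leaving out each array in turn. A fit with no floor and no filter was added after seeing the data.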

Additional observations from a re-analysis of the deposited data

Results flagged for a closer look

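In 33 groups of probe set values, 3 held a lone array whose gap to the nearest other array was large for the range of its group, where chance gives about 1 in 20 groups. All 3 values lay under the floor of 46.9 signal units. For Cd3e, adenoma 4 was at 41.5 signal units, with the other adenoma arrays at 27.9 to 30.1. For the same gene, WT 6 was at 19.6, with the other WT arrays at 48.3 to 79.4. For the Itgae probe set 161730_f_at, WT 6 was at 5.5, with the other WT arrays at 24.5 to 39.0. WT 6 also had the lowest spike-in signal of the WT arrays, at 12.44, and adenoma 4 the highest of the adenoma arrays, at 13.47. The part of these array differences in the 3 values was not tested.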

How the results depend on the processing

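Jchain passed in both tumours in every setting tried except the Gapdh covariate, and Il2rb passed in both except with that covariate, without WT 1, WT 2, WT 4 and WT 5, with the floor at the 40th percentile (-0.55 in both, adjusted p = 0.151 in adenoma and 0.145 in carcinoma) and, in carcinoma, with the spike-in covariate or no floor and no filter (-2.07 ± 0.62, adjusted p = 0.052). Of the 32 alternatives, Prf1 lost its call in 20 in adenoma and 4 in carcinoma, quantile normalization among both (adjusted p = 0.128 and 0.0647), and Cd79b in 4 in adenoma. The count of members lower in adenoma, 4, became 0 with the Gapdh covariate, 2 with the spike-in covariate and 1 without the 4 WT arrays, and ran from 2, without adenoma 5, to 5, without WT 6, with single arrays left out. That in carcinoma, 3, became 0, 1 and 1, and ran from 3 to 4. Over all genes, 617 calls in adenoma became 70, 398 and 196 in those settings (384 to 681 with single arrays left out), and 675 in carcinoma became 100, 382 and 217 (494 to 775). Carcinoma against adenoma gave 0 members throughout, and 0 to 18 genes in place of 2. Whether replicate numbers pair the arrays is not settled. Deviations of same-numbered arrays correlated from -0.27 to 0.4, and they were not compared with those of arrays numbered differently. With the number as a block, 4 members passed in adenoma (Gzma in place of Prf1) and 4 in carcinoma (with Gzma), of 728 and 842 genes. Some differences turned sign, and none of them passed where it did. For Gzma the turned values were 0.04 in adenoma and 0.12 in carcinoma without the 4 WT arrays, and in carcinoma against adenoma -0.41 with the floor at the 10th percentile or with no floor and no filter (-0.09 to 0.22 with single arrays left out). For Itgae in adenoma they were -0.04 to 0.60 with single arrays left out. For Gzmb in carcinoma they were 0.26 with quantile normalization, 0.27 with medians aligned, 0.31 with array weights, 0.28 with the Gapdh covariate, 0.92 with the spike-in covariate and 1.03 without the 4 WT arrays (-0.30 to 0.17 with single arrays left out). For Itgae in carcinoma they were 0.26 with quantile normalization, 0.18 with medians aligned, 0.24 with the floor at the 10th percentile and with no floor and no filter, 0.95 with the Gapdh covariate, 0.46 with the spike-in covariate and 0.78 without the 4 WT arrays (-0.25 to 0.14). The cause of these changes was not tested. Where 4 WT arrays were left out, 2 remained, which widens the error. Signal near the floor limits Cd3e, Cd3g, Cd8a and, in adenoma, Il2rb.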
